A study of Mus musculus with 2 samples.

Results

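Open chromatin at the promoters of long noncoding genes was examined in cardiac progenitor cells (CPCs), as 360 of the 26232 distinct peaks of an ATAC-seq peak list (1.37%, 95% Wilson interval 1.24 to 1.52). ATAC-seq uses the Tn5 transposase, which inserts sequencing adapters where DNA is accessible. A peak was included when its midpoint lay at most 1000 bp from the transcription start site assigned to it and the assigned RefSeq accession was of the NR_ kind, which marks a transcript without a coding sequence. Names of microRNA, small nucleolar RNA (snoRNA) and small Cajal body RNA genes were left out, which removed 81 of 441 such peaks. The choice used the annotation and the distance to the start, not the width or the sequence of a peak. The 360 peaks belonged to 358 genes, and 11331 peaks with a coding (NM_) accession within the same distance, called coding promoter peaks below, served for comparison.

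The cells were differentiated for 5 days from mouse embryonic stem cells of the line E14 Tg(Nkx2-5-EmGFP), in which EmGFP marks cells that express the heart transcription factor Nkx2-5, and the labels give the strain as C57BL/6. The line was kept on mouse embryonic fibroblasts with leukemia inhibitory factor. The paper describes a hanging drop protocol and a directed one with BMP4, Activin A, VEGF, bFGF and FGF10. Its account of the ATAC-seq does not say which was used. The 2 samples are replicates of 1 group from independent differentiations, and the sources used here do not say whether CPCs were sorted before ATAC-seq. The Isl1 knockdown cells that the series names were not analysed here. Both replicates share 1 list of peaks with no scores, so the depth of each sample is unknown and no value for a single replicate could be given. Intervals below cover counting error over peaks, genes or start sites only. Of the heart genes checked, Isl1, Nkx2-5, Tbx5, Mef2c and Tnnt2 each had 1 peak within 1 kb of a start, Gata4 had its nearest peak at -1036 bp and Hand2 had no assigned peak. Pou5f1, Nanog, Cdh5 and Gata1, markers of pluripotent, endothelial and blood cells, had 0 such peaks. These distances are those of midpoints. The Gata4 peak was 3724 bp wide, enough to span the start assigned to it, although no peak lay at its start as placed on mm9 here.

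Long noncoding RNAs (lncRNAs) are transcribed by RNA polymerase II like messenger RNAs, and many are spliced and polyadenylated, but they have no known protein product. Some act in the nucleus on chromatin or on neighbouring genes, some act in the cytoplasm, and others carry snoRNAs or microRNAs in their introns. Many start close to a protein coding gene and run away from it on the opposite strand, so that both genes share a promoter region. In heart development, lncRNAs such as Fendrr, Upperhand and Carmn are known from the mesoderm and the cardiac lineages.

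To show what these promoters look like, the 300 bp around the midpoint of 8 peaks are given, from NCBIM37 (mm9) and 5′ to 3′ along the strand of the noncoding gene. Capitals mark matches, on either strand, to short promoter motifs whose counts are given further on. Lhx1os (chr11:84339027-84339326, plus strand), Gt(ROSA)26Sor (chr6:113027085-113027384, minus strand) and C920021L13Rik (chr3:95675366-95675665, plus strand) stand for promoters shared with a coding gene that points the other way. Their start was at base 137, 146 and 81 of the window, in that order. The coding start of Setd5 was at base 26 of the Gt(ROSA)26Sor window and that of Mrps21 at base 77 of the C920021L13Rik window, whereas that of Lhx1 lay outside. Kcnq1ot1 (chr7:150482312-150482611, minus strand) is an imprinted gene, and Dancr (chr5:74489035-74489334, plus strand) hosts a snoRNA.
Lhx1os: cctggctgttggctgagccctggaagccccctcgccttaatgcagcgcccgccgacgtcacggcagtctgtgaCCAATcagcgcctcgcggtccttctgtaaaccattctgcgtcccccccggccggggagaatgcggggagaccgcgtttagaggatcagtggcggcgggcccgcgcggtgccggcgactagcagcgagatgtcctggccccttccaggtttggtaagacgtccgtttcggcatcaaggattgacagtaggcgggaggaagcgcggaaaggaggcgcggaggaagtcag
Gt(ROSA)26Sor: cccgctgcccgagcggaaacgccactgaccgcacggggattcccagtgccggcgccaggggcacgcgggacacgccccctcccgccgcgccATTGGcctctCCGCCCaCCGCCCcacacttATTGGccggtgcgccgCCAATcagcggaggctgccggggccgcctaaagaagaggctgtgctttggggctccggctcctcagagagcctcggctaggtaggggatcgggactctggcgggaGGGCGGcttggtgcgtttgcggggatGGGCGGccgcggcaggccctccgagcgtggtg
C920021L13Rik: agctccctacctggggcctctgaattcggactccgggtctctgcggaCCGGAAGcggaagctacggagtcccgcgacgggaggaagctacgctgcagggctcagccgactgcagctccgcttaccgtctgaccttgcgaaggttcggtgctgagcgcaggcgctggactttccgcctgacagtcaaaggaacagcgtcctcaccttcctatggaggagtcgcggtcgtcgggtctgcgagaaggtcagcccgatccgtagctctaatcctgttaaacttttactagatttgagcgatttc
Kcnq1ot1: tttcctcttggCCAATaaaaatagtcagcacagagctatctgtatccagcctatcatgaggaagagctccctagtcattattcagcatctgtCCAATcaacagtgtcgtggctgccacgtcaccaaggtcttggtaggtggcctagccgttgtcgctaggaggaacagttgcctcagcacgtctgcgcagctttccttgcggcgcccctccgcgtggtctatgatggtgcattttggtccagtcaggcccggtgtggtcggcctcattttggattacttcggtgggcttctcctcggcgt
Dancr: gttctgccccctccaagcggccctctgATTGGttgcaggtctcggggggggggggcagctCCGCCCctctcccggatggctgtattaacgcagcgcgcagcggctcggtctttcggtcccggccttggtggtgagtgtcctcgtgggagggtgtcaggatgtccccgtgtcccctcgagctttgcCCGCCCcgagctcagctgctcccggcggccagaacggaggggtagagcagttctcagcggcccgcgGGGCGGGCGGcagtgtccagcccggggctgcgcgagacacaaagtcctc

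The other 3 windows come from peaks that stood out by size or number. Evx1os (chr6:52264976-52265275, minus strand) had one of the widest peaks, 9430078K24Rik (chr12:81026360-81026659, minus strand) had the most peaks of the 358 genes, and BB031773 (chr4:102684407-102684706, minus strand) had the narrowest peak. The CpG ratio, that is the observed over the expected number of CG pairs, was 0.97 in the window of Lhx1os and 1.01 in that of C920021L13Rik, but 0.00 in that of Evx1os, 0.39 in that of 9430078K24Rik and 0.31 in that of BB031773. The start was at base 178 of the 9430078K24Rik window and base 136 of the BB031773 window, whereas that of Evx1os lay outside its window. The printed sequences thus range from CpG-rich to CpG-poor, measured on these 300 bp and not on the 1000 bp used for the classes below.
Evx1os: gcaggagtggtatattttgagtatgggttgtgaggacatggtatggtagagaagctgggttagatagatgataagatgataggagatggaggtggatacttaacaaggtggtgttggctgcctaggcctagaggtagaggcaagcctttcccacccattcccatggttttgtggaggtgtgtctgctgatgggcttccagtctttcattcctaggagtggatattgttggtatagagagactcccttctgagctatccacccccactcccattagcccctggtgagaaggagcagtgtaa
9430078K24Rik: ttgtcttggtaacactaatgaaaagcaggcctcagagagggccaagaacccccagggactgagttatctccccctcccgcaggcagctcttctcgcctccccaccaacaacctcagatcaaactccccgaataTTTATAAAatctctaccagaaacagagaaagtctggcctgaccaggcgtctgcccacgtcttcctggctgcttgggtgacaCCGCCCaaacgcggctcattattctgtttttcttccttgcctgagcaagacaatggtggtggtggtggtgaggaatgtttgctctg
BB031773: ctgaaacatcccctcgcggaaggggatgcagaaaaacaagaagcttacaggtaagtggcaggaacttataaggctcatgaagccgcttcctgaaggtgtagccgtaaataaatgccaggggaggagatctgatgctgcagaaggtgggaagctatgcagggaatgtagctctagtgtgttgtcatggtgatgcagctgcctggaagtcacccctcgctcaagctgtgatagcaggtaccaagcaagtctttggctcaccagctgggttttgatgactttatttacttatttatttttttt

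Most of the genes were lncRNA genes by a RefSeq gene table of GRCm38.p6, which was used for names and gene types only. It gave 310 of the 360 peaks (86.1%) to lncRNA genes, 36 to transcribed pseudogenes, 1 to another pseudogene and 1 to an antisense RNA (Nespas). Short structural RNA genes also carry NR_ accessions, and 4 of these peaks were at the telomerase RNA gene Terc, at Rpph1 and Rprl3, both RNase P RNA genes in the table, and at the vault RNA gene Vaultrc5, which the table counts as lncRNA. The table listed 6 of the genes as protein coding and 2 as microRNA genes, and did not hold Toporsos. By GENCODE vM1, the gene models of mm9, 46 of the 360 (12.8%) belonged to a gene annotated as protein coding at that time. The label of long noncoding genes therefore held for the great part of the peaks and not for all. Most genes had only a serial name, since 190 symbols (52.8%) ended in Rik and 75 (20.8%) were Gm followed by digits.

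Pseudogenes need care, because a copy and its parent gene share sequence. Of the 360 peaks, 349 were matched by accession to a gene and its chromosome in the RefSeq table. For 6 pseudogene peaks among 37, the table placed the gene on another chromosome than the peak, and each of the 6 peaks lay within 1 kb of a coding start. The peak assigned to Atp6v0c-ps2 was on chromosome 17, 144 bp from the start of Atp6v0c, and the one assigned to Gm6793 was on chromosome 2, 112 bp from the start of Hnrnpa3. The peaks assigned to Gm7334, BC002163, Gm7367 and Gm12669 lay at Btg3, Ndufs5, Fam100b and Glrx3. None of the others among the 349 had its gene placed on another chromosome than the peak. The 10 peaks matched to the table by symbol alone were not checked for this. A pseudogene peak at a parent gene on the same chromosome cannot be found this way. The peak assigned to the pseudogene Gm9855, for example, lay 7 bp from the start of Tdg, and its strand was not placed. Uniqueness of the sequence was measured with 20 evenly sampled 32-mers per peak. Most of them occurred elsewhere in mm9 in 15 of 360 peaks (4.17%), of which 10 were pseudogene peaks (27.0% of 37) and 5 were lncRNA peaks (1.61% of 310). The same held for 127 of the 11331 coding promoter peaks (1.12%). Gm3020, one of the 2 genes with 2 promoter peaks, had them at chr14:3757061-3759037 and chr14:6972966-6975022, with widths of 1977 and 2057 bp, and both were among the 15.

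The rule kept only midpoints within 1000 bp of a start in both sets, so closeness to the start was partly fixed by the choice. The distances, start coverage and reach given here describe peaks inside that limit. The median distance between midpoint and start was 120 bp (interval 107 to 139), and 246 peaks (68.3%) had their midpoint within 200 bp, against 68.0% of coding promoter peaks (difference 0.352 percentage points, -4.7 to 5.02). Where the strand of the gene could be placed on mm9 (319 peaks), 94.0% of the peaks covered the start. They reached a median of 608 bp upstream (574 to 659) and 638 bp downstream (610 to 668), so that the 2 sides did not differ beyond these intervals. The peaks just inside the distance limit were those of Kis2 at 987 bp and of 9330111N05Rik and Malat1, both at 981 bp. Just outside it were 9530026P05Rik at 1016 bp, Carmn at 1046 bp and Bloodlinc at 1047 bp. Carmn, a lncRNA of cardiac mesoderm and smooth muscle, thus missed inclusion by a small margin, with a peak of 1114 bp upstream of the start.

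A start of another gene that is protein coding lay within 1 kb of the midpoint of 136 peaks (37.8%, 32.9 to 42.9), and these are called shared promoters. The other 224 (62.2%) are called stand-alone. Without the 6 pseudogene peaks on another chromosome than their gene, the share of shared promoters was 36.7% (31.9 to 41.9). Among coding promoter peaks, 10.5% had the start of a second coding gene as near (9.99 to 11.1), and the difference was 27.2 percentage points (22.3 to 32.4). These shares hold only for peaks that the list assigned to a noncoding gene. By start site, as described below, 554 of 831 lncRNA genes with a peak had a coding start within 1 kb. The list assigned a peak to the lncRNA gene itself for 24.5% of these and for 58.1% of the other 277. Stand-alone peaks were mostly far from coding genes. The median distance to the nearest coding start was 24932 bp (19784 to 30375), 78.1% were more than 10 kb away, and 84.4% had their midpoint outside any coding gene body. In 27 stand-alone cases (12.1%) the midpoint lay inside a coding gene on the opposite strand to the noncoding gene.

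Strand was placed for 118 of the 136 shared promoters. In 70 of them (59.3%, 50.3 to 67.8) the genes were head-to-head, with the coding start upstream of the noncoding start and the 2 genes running apart. In 36 (30.5%, 22.9 to 39.3) they faced each other, with the coding start downstream and the transcripts overlapping, and in 12 (10.2%) both were on the same strand. Pairs of coding genes were head-to-head in 72.6% of 1133 cases, and the head-to-head share was lower for noncoding genes by this measure (difference -13.3 percentage points, -22.7 to -4.47). Head-to-head starts were a median of 158 bp apart (129 to 182), close to the 154 bp of coding pairs (141 to 163), and 84.3% of the noncoding pairs were at most 300 bp apart. A single peak covered both starts in 69 of the 70 pairs. Facing pairs were spaced more widely, with a median of 302 bp (152 to 496) and a range of 5 to 1049 bp.

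**Figure D1:**
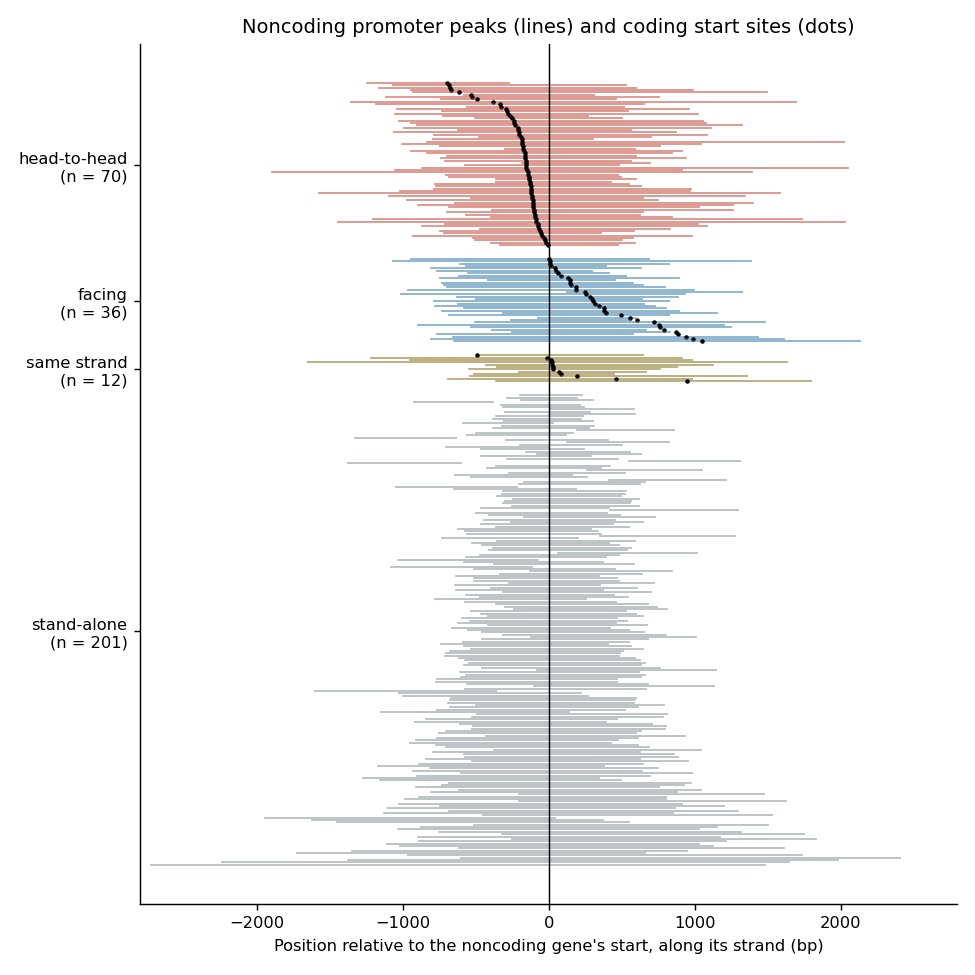
Each line is 1 of the 319 peaks with a placed strand, drawn from its left to its right end in bp relative to the noncoding start (vertical line), along the noncoding strand. Black dots mark the nearest coding start of the 118 shared promoters, grouped by orientation and sorted by position. Peaks of the 201 stand-alone genes are sorted by width, and dots of the 70 head-to-head pairs lie just upstream of the noncoding start.

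**Figure D2:**
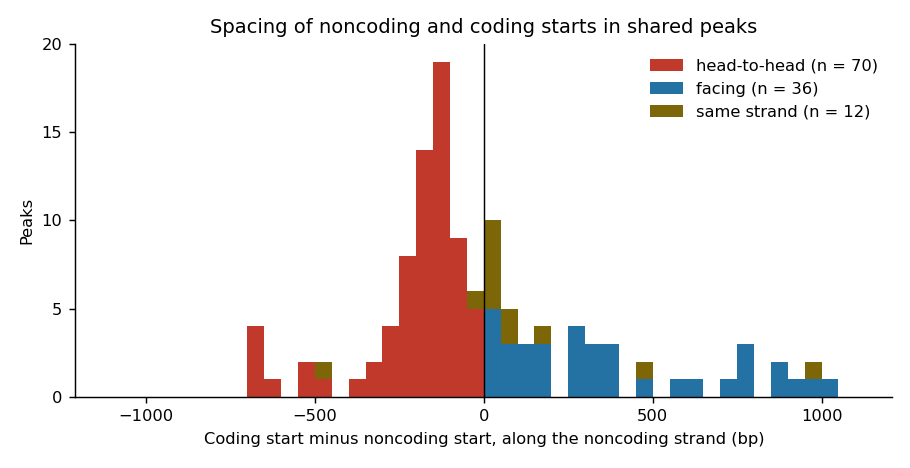
The histogram counts shared promoters by coding start minus noncoding start, in bp along the noncoding strand, stacked by orientation. Head-to-head pairs pile up just upstream of the noncoding start, with a median spacing of 158 bp, and facing pairs spread downstream to 1049 bp.

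Coding partners of the head-to-head promoters included regulators of development. Lhx1os started 240 bp from Lhx1, a LIM homeodomain factor of early mesoderm and head, and had a peak of 2084 bp. LOC105245869 and Sox21, a SOX factor of neural progenitors, were 145 bp apart under a peak of 3290 bp. Gm20554 and the Iroquois gene Irx2 were 232 bp apart under 2228 bp, 2610035F20Rik and the zinc finger gene Zic2 182 bp apart under 2859 bp, and 5930412G12Rik and the Wnt receptor gene Fzd10 156 bp apart under 2923 bp. All of these peaks were wider than the median of 1230 bp over the 360. Other partners have general functions in cells. C130036L24Rik started 120 bp from Ncl, which encodes nucleolin, and C920021L13Rik only 4 bp from the mitochondrial ribosomal protein gene Mrps21, under a peak of 810 bp. Gt(ROSA)26Sor, the locus used for ubiquitous transgene expression, started 120 bp from Setd5 under a peak of 3155 bp. These pairs were chosen after their values were seen.

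Developmental genes also occurred among the other orientations. AI646519 faced the paired box gene Pax1 with the starts 869 bp apart, under a peak of 1082 bp. The start of 9230102O04Rik was 493 bp downstream of that of Gata3 on the same strand, under 1114 bp, and GENCODE vM1 annotated the former as protein coding. These examples were likewise chosen after their values were seen. None of the 360 midpoints lay within 1 kb of a coding start of the 45 cardiac regulators listed. No share over all coding genes was computed for comparison. A peak is assigned to 1 gene, and 31 of the 45 had a promoter peak assigned to themselves, which could not be among the 360. The peaks over the starts of Fendrr and Tbx3os1, for example, were assigned to Foxf1 and Tbx3. This count therefore does not show that noncoding starts are absent there. The nearest were those of Crnde at 1593 bp from Irx5, of 2810405F15Rik at 10116 bp from Meis2 and of 1110036E04Rik at 27917 bp from Smad6, with widths of 1385, 1319 and 1655 bp.

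The noncoding promoter peaks were somewhat narrower than those of coding genes. The median width was 1230 bp (1179 to 1289), with quartiles of 955 and 1684 bp and a range of 430 to 4206 bp. The median of coding promoter peaks was 1330 bp (1320 to 1341), and the difference was -100 bp (-152 to -40.2). Among peaks with the midpoint within 200 bp of the start it was -54.5 bp, with an interval that includes 0 (-115 to 19.7). Shared and stand-alone promoters lay on either side of the coding median. Shared promoters had a median of 1512 bp (1363 to 1684), which was 182 bp above coding promoter peaks (32.6 to 354). Stand-alone promoters had a median of 1073 bp (1011 to 1179), and their difference from shared promoters was -439 bp (-622 to -256). A width follows the peak caller and the depth of the sample as well as the chromatin, and an interval in the list has the coordinates of 1 replicate.

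The same divide was seen in sequence. A window of 1000 bp around the midpoint was called CpG-rich when its CpG ratio reached 0.6 and its GC content 50%, as is typical of CpG islands, which mark promoters of housekeeping and developmental genes. Of shared promoters, 110 of 136 were CpG-rich (80.9%, 73.5 to 86.6), and of stand-alone promoters 89 of 224 (39.7%, 33.5 to 46.3), a difference of -41.2 percentage points (-49.6 to -31.3). Coding promoter peaks were CpG-rich in 73.7% (72.9 to 74.5). The share among stand-alone promoters was below that of coding promoter peaks with no second coding start, which was 72.5%, by -32.8 percentage points (-39 to -26.2). For shared promoters the difference from all coding promoter peaks was 7.16 percentage points (-0.3 to 12.9), an interval that includes 0. The median GC content was 62.7% in shared promoters and 55% in stand-alone promoters. Limiting stand-alone promoters to the 167 at RefSeq lncRNA genes that GENCODE vM1 did not annotate as coding gave a CpG-rich share of 35.9% (29 to 43.4).

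**Figure D3:**
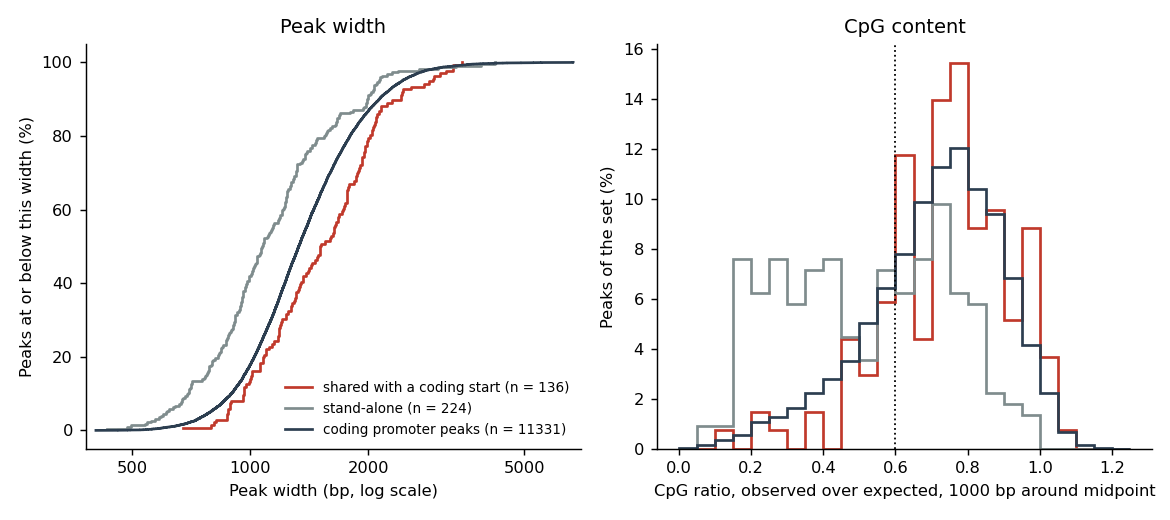
On the left, the share of peaks (%) at or below each width (bp, log scale) is drawn for the 136 shared promoters, the 224 stand-alone promoters and the 11331 coding promoter peaks. On the right, the share of each set (%) is drawn by CpG ratio in 1000 bp around the midpoint, with the limit of 0.6 dotted. Stand-alone promoters lie to the left in both panels, and their CpG ratios spread from 0.0759 to 0.999.

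Width and CpG content went together, and stand-alone promoters were narrower within each CpG class too. Among CpG-rich peaks, the median was 1630 bp for shared promoters (1441 to 1764), 1405 bp for coding promoter peaks (1393 to 1417) and 1248 bp for stand-alone promoters (1194 to 1319). Within that class, stand-alone promoters differed from coding promoter peaks by -157 bp (-212 to -85) and from shared promoters by -382 bp (-526 to -180). Among CpG-poor peaks, stand-alone promoters had a median of 973 bp (925 to 1041) and differed from coding promoter peaks by -138 bp (-189 to -67.7). The 26 CpG-poor shared promoters had a median of 1124 bp (1012 to 1675), close to the 1111 bp of CpG-poor coding promoter peaks, and stand-alone promoters differed from them by -151 bp (-704 to -20). For scale, peaks more than 10 kb from any assigned start had a median of 880 bp, and 6.18% of them were CpG-rich.

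The widest peak was at Mirc35hg, a host gene named for a microRNA cluster, with 4206 bp at chr6:30122645-30126850. It was a stand-alone promoter, with its midpoint 58633 bp from the start of Nrf1, and was CpG-poor by the ratio (0.55) although its GC content was 62.7%. Evx1os, antisense to the homeobox gene Evx1 at the end of the Hoxa cluster, followed with 3886 bp at chr6:52263183-52267068. Its midpoint was 1580 bp from the Evx1 start, just beyond the limit for shared promoters, and its CpG ratio was 0.29. The peak was wide enough to cover the Evx1 start as well as that of Evx1os, so it was stand-alone by its midpoint only. Next came 5031425E22Rik with 3478 bp, head-to-head with Mll5 at 87 bp, Gm17762 with 3359 bp and LOC105245869 at Sox21 with 3290 bp. Further wide stand-alone peaks were those of 0610009L18Rik (3009 bp) and of Dleu2 (2700 bp), the host gene of a microRNA pair deleted in leukemia. The peak of 0610009L18Rik counted as stand-alone because its midpoint was 1040 bp from the start of Actg1, but the starts of these genes were head-to-head and 137 bp apart, which makes it a shared promoter by its starts. It was the only one of the 201 stand-alone peaks with a placed strand whose own start lay within 1 kb of the nearest coding start. The narrowest peaks were those of BB031773 (430 bp), 1810063I02Rik (485 bp) and 1700054K19Rik (497 bp), all stand-alone, with CpG ratios of 0.30, 0.35 and 0.18.

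Short promoter motifs were counted on both strands in the 300 bp around each midpoint. They were the TATA box (TATAAA), the CCAAT box (CCAAT), the GC box bound by SP factors (GGGCGG), and motifs of ETS factors (CCGGAAG), CREB (TGACGTCA), GATA factors (AGATAAG), NRF1 (GCGCATGC) and YY1 (AAGATGG). None of the 8 contains another. The GC box was found in 69.1% of shared promoters (60.9 to 76.3), 52.2% of stand-alone promoters (45.7 to 58.7) and 66.9% of coding promoter peaks. The difference of stand-alone from shared promoters was -16.9 percentage points (-26.6 to -6.45), and it went with CpG content. The GC box was found in 75.3% of CpG-rich and 37.0% of CpG-poor stand-alone promoters. Against coding promoter peaks of the same class, the difference was 1.77 percentage points for CpG-rich stand-alone promoters (-8.15 to 9.62) and -11.5 for CpG-poor ones (-19.4 to -2.9). The ETS motif was found in 12.2% of the 360 peaks and 14.5% of coding promoter peaks, a difference with an interval that includes 0 (-5.38 to 1.52). Among CpG-poor promoters it was rarer in stand-alone peaks (4.44%) than in coding promoter peaks (10.5%), by -6.07 percentage points (-8.72 to -1.04).

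The TATA box was more frequent than in coding promoter peaks, although rare. It was found in 18 of 360 peaks (5.0%, 3.19 to 7.76), among them that of 9430078K24Rik printed above, against 2.7% of coding promoter peaks, a difference of 2.3 percentage points (0.458 to 5.08). The CCAAT box was found in 31.9% of the peaks and 27.2% of coding promoter peaks (difference 4.78, 0.102 to 9.83). Within CpG classes, the interval excluded 0 for the TATA box in CpG-rich stand-alone promoters alone (3.44 percentage points, 0.227 to 10.3), which rested on 5 of 89 peaks, and for the CCAAT box in neither class. The GATA motif was found in 6 stand-alone promoters (2.68%) and in 0 of 136 shared promoters, which allows a share of up to 2.21% by a limit of 3 counts and 2.75% by the Wilson interval. It was found in 0.927% of coding promoter peaks (0.766 to 1.12). The difference from these was 0.74 percentage points over all 360 (-0.181 to 2.67), 1.02 for CpG-poor stand-alone promoters against coding promoter peaks of that class (-0.875 to 5.44), and 1.68 for CpG-rich ones (0.0453 to 7.27), the last resting on 2 of 89 peaks. The CREB, NRF1 and YY1 motifs were found in 2.22%, 1.94% and 4.17% of the 360 peaks, and each interval of the difference from coding promoter peaks included 0. In all 32851 promoter sequences of RefSeq, each 300 bp long and mostly upstream of the start, the shares were 13.6% for the TATA box, 37.4% for the CCAAT box, 35.7% for the GC box, 8.86% for the ETS motif, 1.79% for the CREB motif, 3.04% for the GATA motif, 2.71% for the NRF1 motif and 6.34% for the YY1 motif. In the 11588 of these sequences at lncRNA genes, the shares were 15.5% (TATA box), 36% (CCAAT box), 16.3% (GC box) and 3.89% (ETS). For the CREB, GATA, NRF1 and YY1 motifs they were 0.975%, 3.78%, 1.23% and 6.52%. The TATA box was thus less frequent in the 360 peaks than in these sequences, whose windows are placed by the start and need no peak. The intervals are not adjusted for the number of motifs, and a match describes the letters, not binding.

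**Figure D4:**
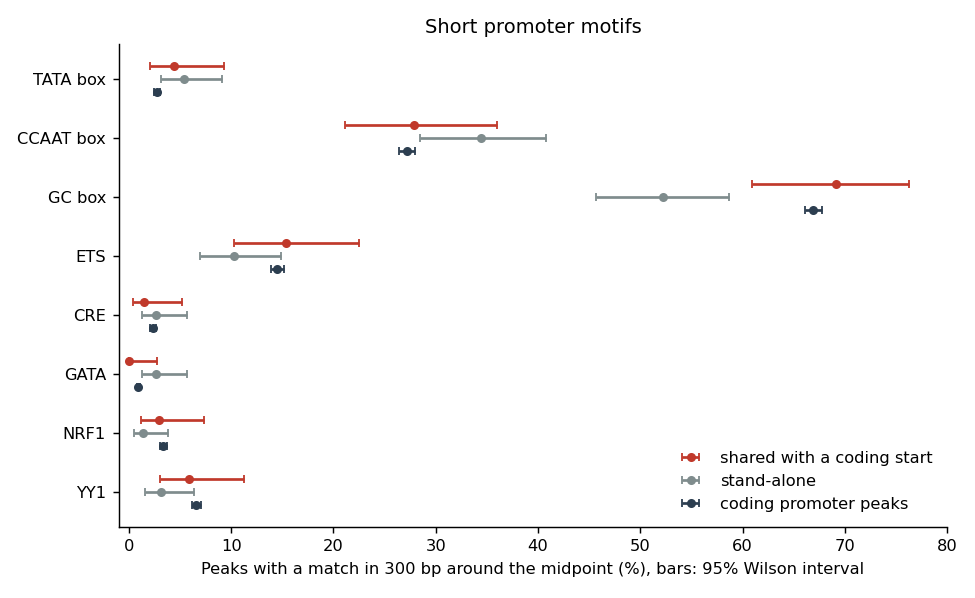
Points give the share of peaks (%) with at least 1 match to each motif in 300 bp around the midpoint, for shared promoters, stand-alone promoters and coding promoter peaks, with 95% Wilson intervals. The GC box separates stand-alone promoters (52.2%) from shared promoters (69.1%) and coding promoter peaks (66.9%), and most other intervals overlap.

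Of the lncRNAs known from heart and mesoderm, 3 of 20 had a promoter peak of their own, and all 3 are widely expressed genes. By start site, 4 of the 18 placed genes had a peak. Over all 2646 lncRNA genes examined by start site below, 297 had a peak assigned to themselves and 31.4% had any peak. These values are the background for the lists that follow too. Tug1, head-to-head with Morc2a at 679 bp, had a peak of 1764 bp with a CpG ratio of 1.03. Norad, listed as 2900097C17Rik, binds Pumilio proteins and had a peak of 843 bp, in which most sampled 32-mers also occurred elsewhere. Malat1, a nuclear speckle RNA, had a peak of 1244 bp with the midpoint 981 bp upstream of the start. Fendrr had a peak of 2437 bp over its start that the list assigned to the coding neighbour Foxf1. H19 and Playrr had peaks only at 33072 bp and 105720 bp, Meg3 had its nearest peak 1687 bp upstream, and Upperhand (Uph, or Hand2os1) had 1 at 8191 bp. Miat, Dnm3os, Neat1, Myheart, Chaer1 and Wisper had none assigned to them and none over a placed start. The list holds what was found in both replicates, so a gene without a peak need not have closed chromatin.

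Host genes of snoRNAs, which are transcribed in most growing cells, mostly had a peak at the start, although 6 of these peaks were assigned to another gene or carried a coding accession. Of 21, 10 were included here, namely Gas5, Snhg3, Snhg4, Snhg5, Snhg6, Snhg15, Snhg17, Snhg20, Epb4.1l4aos and Dancr. Their widths ran from 876 bp (Snhg6) to 1838 bp (Gas5) with a median of 1116 bp, and 9 of the 10 were CpG-rich. Only Gas5, 332 bp from Zbtb37 and head-to-head, and Snhg3, on the same strand as Rcc1 at 82 bp, were shared promoters. A further 6 hosts had a peak over the start without being included. The peaks of Zfas1 (2114 bp) and Snhg11 (971 bp) carried coding accessions, and those over Snhg1, Snhg9, Snhg16 and Snhg18 were assigned to Slc3a2, Rps2, 1810032O08Rik and Sema5a. By start site, 14 of the 19 placed hosts therefore had a peak, which excludes Snhg6 and Epb4.1l4aos since their starts were not placed.

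Imprinted and dosage compensation genes had 4 promoter peaks among 17, all stand-alone. By start site, 4 of the 14 placed genes had a peak, against 31.4% of all 2646 lncRNA genes. Kcnq1ot1, which silences neighbouring genes on the paternal chromosome, had a peak of 1151 bp with its midpoint 9 bp from the start. Airn, which acts on Igf2r, had 960 bp, Nespas, antisense in the Gnas cluster, had 1186 bp, and Jpx, an activator of Xist, had 904 bp. Xist itself had no assigned peak and none over its start. H19, Tsix, Ftx, Peg13 and Nctc1 had assigned peaks at 33072, 16216, 6669, 42073 and 5501 bp from a start and none within 1 kb. Among short structural RNA genes, 4 of 18 were included, with widths of 1031 bp (Terc), 886 bp (Rpph1, 165 bp from Parp2), 912 bp (Vaultrc5) and 643 bp (Rprl3). The starts of such short genes were not placed on mm9 by RefSeq promoter or gene model, so only the deposited assignment was used.

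By start site, 8 of the 21 placed antisense and other lncRNAs of homeobox and developmental genes had a peak, against 31.4% of all 2646 lncRNA genes. Promoter peaks of their own were found in 6 of 30 cases. These were Hotairm1, Hoxd3os1, Six3os1, Evx1os, Lhx1os and Tunar, with widths of 1883, 852, 2088, 3886, 2084 and 1935 bp, so that all but Hoxd3os1 were wider than the median over the 360 peaks. Lhx1os was the shared promoter shown above. Tbx3os1 and Wt1os had peaks over their starts that were assigned to the neighbours Tbx3 (1911 bp) and Wt1 (916 bp), and Gm5468 had one assigned to Basp1. Pantr1, whose peak at -1031 bp carried a coding accession, was not included. Peaks of Hotair, Halr1, Hoxb5os, Dlx1as, Dlx6as1, Sox2ot, Emx2os, Nkx2-2os and Rmst lay between 1543 bp (Dlx1as) and 15929 bp (Sox2ot) from a start. The genes Hottip, Hoxa11as and Pax6os1 had none.

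Since a peak is assigned to 1 gene in the list, start sites were also examined directly. RefSeq promoters were placed on mm9 by exact sequence, and 2646 lncRNA genes and 16398 coding genes with a unique placement and a curated transcript were used. A peak lay within 500 bp of a start for 831 lncRNA genes (31.4%, 29.7 to 33.2) and 9865 coding genes (60.2%, 59.4 to 60.9). The list assigned such a peak to the gene itself for 297 of the 831 lncRNA genes (35.7%) and for 89.7% of the coding genes. For 505 of the other 534 lncRNA genes (94.6%), a peak over the start was assigned to a gene with a coding accession. Of the 831, 554 had a coding start within 1 kb, and the list gave 24.5% of these a peak of their own. Without such a start it was 58.1% of 277. Of the 534 genes, 61 had a peak elsewhere in the list under their own name, and how many the annotation behind the list held is not given in the sources used here.

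CpG content divided these starts. Of lncRNA starts, 614 (23.2%) were CpG-rich, against 49.2% of coding starts. A peak was found at 85.7% of CpG-rich lncRNA starts (82.7 to 88.2) and at 15% of CpG-poor ones (13.5 to 16.6), while coding starts had 90.4% and 31.0%. The difference from coding starts was -4.69 percentage points in the CpG-rich class (-7.75 to -2.06) and -15.9 in the CpG-poor class (-17.7 to -14.1). Starts of lncRNA genes with no coding start within 1 kb had a peak in 74.1% of 112 CpG-rich cases (65.3 to 81.3) and in 11.2% of 1735 CpG-poor cases (9.78 to 12.8). With a coding start that near, 69.3% of 799 lncRNA starts had a peak, and without one 15% of 1847. With GENCODE vM1 in place of RefSeq, 29.6% of 3845 noncoding starts had a peak (28.1 to 31), 82.9% when CpG-rich and 15.3% when CpG-poor. There, genes of the lincRNA class had a peak in 55.2%, genes with antisense transcripts in 21.6% and other processed transcripts in 12.6%.

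**Figure D5:**
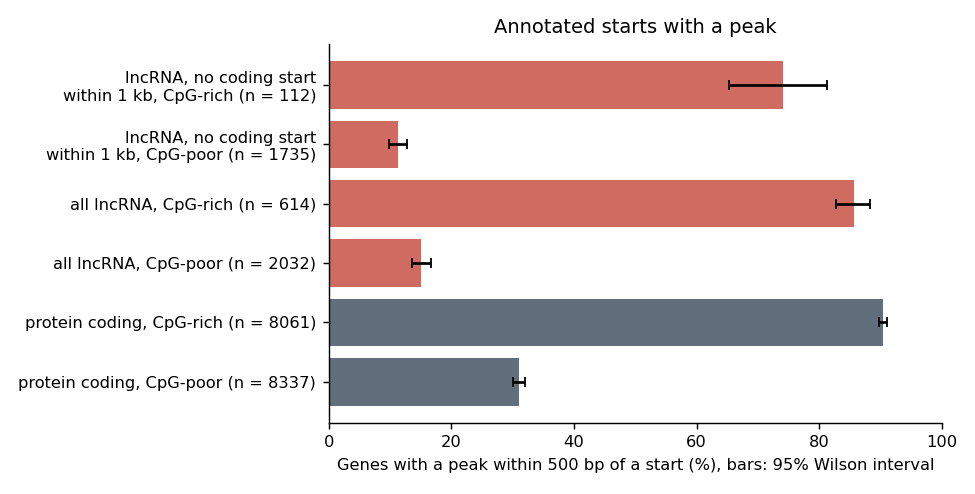
Bars give the share of RefSeq genes (%) with a peak within 500 bp of a start, by CpG class, with 95% Wilson intervals and the number of genes in each class. CpG-rich starts of lncRNA genes reach 85.7% and those of coding genes 90.4%, while CpG-poor starts of lncRNA genes without a coding start within 1 kb reach 11.2%.

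Further peaks elsewhere were assigned to 137 of the 358 genes (38.3%, 33.4 to 43.4), and to 39.9% of genes with a coding promoter peak (difference -1.62 percentage points, -6.59 to 3.59). Genes with stand-alone promoters had them more often (44.4% of 223) than genes with shared promoters (28.1% of 135), by 16.2 percentage points (5.93 to 25.8). A peak is assigned to the nearest start, and genes with a neighbour have less sequence nearest to their own start, whose part in this difference was not tested. The most peaks were assigned to 9430078K24Rik, with 11, of which 9 were more than 10 kb from a start. It was followed by 1700030C10Rik with 9 peaks, 2610028E06Rik and 5031425F14Rik with 7 each and Gm20554 at Irx2 with 6. Gm19689 and 1700057H15Rik also had 6. The promoter peak of 9430078K24Rik was 970 bp wide and 187475 bp from the nearest coding start, that of Zfp36l1, and those of the next 3 genes were 85217 to 134176 bp from one. 1700057H15Rik was the other gene with 2 promoter peaks, of 765 and 1081 bp, which lay next to each other.

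The peaks were spread over the 19 autosomes and the X chromosome, from 8 on chromosome 19 to 38 on chromosome 2. On the X chromosome lay 15 (4.17%, 2.54 to 6.76), including Jpx, against 3.16% of coding promoter peaks, a difference of 1.01 percentage points with an interval that includes 0 (-0.653 to 3.62). The share of noncoding among all noncoding and coding promoter peaks ran from 1.98% on chromosome 19 (1.01 to 3.86) to 4.06% on chromosome 17 (2.72 to 6.01), and these intervals overlap.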

How the data were processed

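ATAC-seq reads of both replicates were, per the study's methods, mapped by the authors to mm9 with bowtie2, filtered with samtools, cleared of duplicates with Picard 1.136 and called as peaks with MACS14 with a fixed shift and no fitted model. Peaks overlapping the ENCODE blacklist and the overlap of replicates (at least 1 bp) were handled with bedtools 2.15. For the assignment of starts, the methods name HOMER in the account of the ChIP-Seq peaks. No correction for the Tn5 cut position beyond that shift is described, and a MACS width depends on it. The deposited peak starts and ends, and the signed distance to a start, are in bp with no normalization, and no score, count or signal was deposited with them.

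The 26429 lines were reduced to 26232 distinct intervals. Positions are 1-based on mm9. Coding starts within 1000 bp came from GENCODE vM1, with older names of the same gene excluded. RefSeq promoter sequences (GRCm38.p6, 250 bp before to 50 bp after a start) were placed on mm9 by exact match. Strand came from them for 267 peaks, from GENCODE for 52, and was unknown for 41, and for 294 of the 319 placed peaks the deposited distance fitted an annotated start within 2 bp. Gene type was matched by accession for 349 peaks and by symbol for 10. Shares have 95% Wilson intervals, their differences Newcombe intervals, and medians order-statistic intervals, whose limits were combined for differences of medians. The functions were tested on simulated data. Python 3.11.15, numpy 2.4.6, pandas 2.3.3, scipy 1.17.1 and pysam 0.24.0 were used.

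No test between conditions was possible with 1 group. The members, the 6 gene lists and the named genes (list genes, the widest and narrowest peaks, genes with most peaks, peaks at the distance limit and neighbours of cardiac regulators) were chosen with earlier results of these data known. Alternatives were other limits of distance, width, gene type, CpG class and window. The coding neighbour of 1 list gene is not reported here.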

Additional observations from a re-analysis of the deposited data

How the results depend on the processing

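No paired analysis was possible because both samples belong to 1 group and share 1 list of peaks, and for the same reason neither replicate could be left out. The 4 differences between peak sets kept their direction under all 23 alternatives, among them limits of 500 and 200 bp from the start, RefSeq lncRNA genes only, and, chosen after seeing the data, sharing judged also by the start of the noncoding gene, and sets without genes coding in GENCODE or without repeated sequence. The interval of 1 of them came to include 0, since the width difference from coding promoter peaks was -54.5 bp (-115 to 19.7) at a limit of 200 bp, and the cause was not tested. Over all results, 63 of 76 alternatives stayed inside the interval of the reported value or within 1.5 times a count. The CpG-rich share of the 360 peaks was 27.8% at a ratio of 0.75 and GC of 55%, and 49.7% over the whole peak. The share of GENCODE noncoding starts with a peak was 31.9% within 1000 bp, 27.6% within 200 bp and 14.5% without starts near a coding start. Motif shares followed the window. With 200 bp they were 21.7% (CCAAT), 46.4% (GGGCGG) and 8.89% (CCGGAAG), and with 500 bp 47.2%, 69.7%, 17.5%, 8.89% (TATAAA) and 7.22% (AAGATGG). Depth is unknown, so no limit of detection can be given. The list gives presence of a peak in both replicates and no height.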
